A study of Mus musculus with 9 samples.

Results

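The immediate early genes described here are Fos, Fosb, Jun, Junb, Egr1, Nr4a1, Ier2, Dusp1, Klf6 and Ppp1r15a, measured by every probe set that the platform annotation assigns to them. These 10 genes have 13 probe sets of 22626 on the array, where a probe set is a group of short probes that together report 1 transcript. Klf6 has 3 probe sets, Jun has 2, and the others have 1 each. All 13 passed the filter on dim signals. The RNA came from mouse regulatory T cells, the CD4+CD25+ lymphocytes that restrain other immune cells, collected by magnetic separation. There were 3 groups of 3 arrays, all of strain C57BL6. In the first group Sirt1 had been deleted conditionally by Foxp3-cre, in the second by CD4-cre, and the third was wild type (WT). The groups are called by these names below. Foxp3 drives expression in regulatory T cells, whereas CD4 drives it in T cells at large, and Sirt1 encodes an NAD-dependent protein deacetylase. The sources used here do not give the deleted part of Sirt1, the age of the mice or any pooling. Samples are described as independent but not as separate animals, so a p-value reflects only how these arrays varied, which may partly be technical variation.

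Immediate early genes are transcribed within minutes of a stimulus, from transcription factors that are already present in the cell. Kinases of the MAP kinase cascades and calcium signals act on serum response factor with its partners and on CREB, which bind serum response elements and cAMP response elements (CRE) in the promoters of these genes. In T cells the antigen receptor is the best known trigger, and the products include the AP-1 transcription factors (Fos and Jun proteins), other regulators of transcription, and proteins that switch the signal off. Deacetylation of the Jun protein by the Sirt1 protein has been described in mouse T cells. These genes also respond to stress and to handling of cells, and the sources used here do not give the handling time.

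Promoter sequences were available from RefSeq (build GRCm38.p6) for 8 of the 10 genes, namely all but Egr1 and Ier2. The 250 bases before the transcription start given in that table are shown for Jun and Klf6, which carry the changed probe sets reported below, for Ppp1r15a, whose difference lay nearest to the threshold, and for Fos and Dusp1, whose differences from WT were among the smallest. Capitals mark matches to any of the searched motifs.
Jun (chr4:95052223-95052472, minus strand): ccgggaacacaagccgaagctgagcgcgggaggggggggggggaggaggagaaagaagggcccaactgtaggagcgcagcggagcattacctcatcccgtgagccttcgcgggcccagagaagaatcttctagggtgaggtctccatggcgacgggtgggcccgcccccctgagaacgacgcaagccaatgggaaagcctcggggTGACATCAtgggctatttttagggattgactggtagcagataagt
Klf6 (chr13:5861239-5861488, plus strand): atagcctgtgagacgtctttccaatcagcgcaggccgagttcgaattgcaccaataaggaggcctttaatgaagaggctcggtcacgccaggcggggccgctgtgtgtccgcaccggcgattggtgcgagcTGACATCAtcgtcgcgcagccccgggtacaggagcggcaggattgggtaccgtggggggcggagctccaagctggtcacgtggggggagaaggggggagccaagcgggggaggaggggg
Ppp1r15a (chr7:45526269-45526518, minus strand): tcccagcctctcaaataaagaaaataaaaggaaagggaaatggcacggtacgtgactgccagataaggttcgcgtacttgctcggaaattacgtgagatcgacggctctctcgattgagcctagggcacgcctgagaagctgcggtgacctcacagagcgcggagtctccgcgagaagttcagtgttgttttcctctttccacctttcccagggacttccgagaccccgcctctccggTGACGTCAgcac
Fos (chr12:85473640-85473889, plus strand): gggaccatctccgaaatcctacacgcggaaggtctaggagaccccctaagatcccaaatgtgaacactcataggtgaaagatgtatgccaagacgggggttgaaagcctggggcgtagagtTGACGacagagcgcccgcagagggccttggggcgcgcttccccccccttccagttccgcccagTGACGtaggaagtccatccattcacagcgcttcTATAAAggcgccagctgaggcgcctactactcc
Dusp1 (chr17:26508473-26508722, minus strand): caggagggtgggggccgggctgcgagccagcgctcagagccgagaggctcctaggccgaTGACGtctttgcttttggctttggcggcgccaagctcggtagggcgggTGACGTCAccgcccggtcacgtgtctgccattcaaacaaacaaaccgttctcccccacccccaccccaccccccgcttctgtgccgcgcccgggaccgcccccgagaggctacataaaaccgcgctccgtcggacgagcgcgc
The motifs were the full CRE (TGACGTCA), its core (TGACG), the AP-1 site (TGACTCA), the variant site first described in the Jun promoter (TGACATCA), an EGR site (GCGGGGGCG), the serum response element core called the CArG box, each on both strands, and the TATA box (TATAAA) on the gene's strand. The core lies within the full CRE, so matches to both overlap. Ppp1r15a and Dusp1 held a full CRE, which 1.55% of all 32851 such windows hold, and 6 of the 8 members held the core, against 17.8% of all windows. The TGACATCA variant, searched after the windows had been read, occurred in Jun and Klf6 and in 2.93% of all windows. The EGR site matched in Fosb and Nr4a1 (2.57% of all windows) and the TATA box in Fos (7.59%). No CArG box or AP-1 site was found in these 8 windows, against 1.47% and 4.46% of all windows. Bases further upstream were not searched, so this does not show that the promoters lack such sites. For Fosb and Nr4a1 the start in the promoter table lay 73 and 12944 bases inside the annotated start of the gene. Both EGR matches, and the core in 2 of the 6 members that held it, thus come from windows at such inner starts. The members' windows held 54.4% to 74.4% G or C, against a median of 52.4% over all windows. The shares over all windows are therefore not matched for base content. A match is a description of the letters only.

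Before the results, 3 properties of the series bear on them. WT replicate 2 stood apart, with correlations of 0.982 to 0.987 with the other 8 arrays, which correlated at 0.992 or more among themselves, and its 5′ minus 3′ signal for beta-actin was -1.53, against -0.68 to -0.45 on the others. The single Sirt1 probe set read 7.66, 7.54 and 7.47 in Foxp3-cre, 7.69, 7.59 and 7.59 in CD4-cre, and 7.91, 6.77 and 7.90 in WT, and overlapped between the groups. The difference was 0.03 in Foxp3-cre against WT (limma adjusted p = 0.960), or -0.35 without WT replicate 2 (adjusted p = 0.0371), and the sources do not say whether this probe set lies in the removed part. T cell markers had means over 5 genes of 10.68 to 10.75 in Foxp3-cre, 10.69 to 10.74 in CD4-cre and 10.62 to 10.78 in WT. Il2ra (CD25) and Ctla4 were present in all groups, but Foxp3 itself, the defining gene of the lineage, read 2.67, 3.38 and 2.83 in Foxp3-cre, 9.68, 9.69 and 9.62 in CD4-cre, and 9.16, 9.68 and 9.34 in WT. On the 3 Foxp3-cre arrays it thus lay under the filter for dim signals, a log2 signal of 4.52.

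In Foxp3-cre against WT, all 13 immediate early probe sets lay lower in the mean, and 3 of them fell past the threshold, for the genes Jun and Klf6. Of all 13576 probe sets tested, 2.64% changed in this comparison and 1.31% fell (limma, Benjamini-Hochberg adjusted p below 0.05). In numbers, 180 rose and 178 fell, or 163 and 246 when each array was centred on its median. By the brightest probe set of each gene, the median difference of the 10 members was -0.45 on the log2 scale, while that of all tested probe sets was 0.01, of which 48.9% lay below 0. In 8 of the 13 probe sets every Foxp3-cre array read lower than every WT array, which held for 10.8% of all probe sets. At an unadjusted p under 0.05 there were 10 member probe sets, all lower, against 9.21% of all probe sets in that direction. In bulk RNA such as this, fewer cells with a transcript and less of it per cell cannot be told apart.

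Jun encodes the AP-1 subunit that can pair with itself or with a Fos protein. Its probe set 1448694_at had log2 signals of 7.76, 8.40 and 8.33 in Foxp3-cre, 8.85, 8.70 and 8.63 in CD4-cre, and 8.85, 8.99 and 9.05 in WT. All Foxp3-cre arrays were lower than all others, replicate 1 by the widest margin. Jun fell by 0.80 on the log2 scale in Foxp3-cre against WT (SE 0.16, 95% interval -1.16 to -0.44, limma adjusted p = 0.0389), which is 57.5% of the WT signal. The other Jun probe set, 1417409_at, read 10.69, 10.86 and 10.82 in Foxp3-cre, 11.41, 11.30 and 11.16 in CD4-cre, and 11.59, 10.83 and 11.63 in WT. Here WT replicate 2 lay among the Foxp3-cre arrays and the groups overlapped, and the difference of -0.56 (SE 0.19) did not pass (adjusted p = 0.167). Without WT replicate 2 it was -0.82 (adjusted p = 0.00427).

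Klf6, a Krüppel-like zinc-finger transcription factor, was the other gene that fell. The probe set 1418280_at read 7.28, 7.24 and 7.65 in Foxp3-cre, 7.54, 7.45 and 7.48 in CD4-cre, and 7.89, 8.35 and 8.13 in WT. The probe set 1427742_a_at read 9.41, 9.35 and 9.53 in Foxp3-cre, 9.64, 9.50 and 9.59 in CD4-cre, and 9.86, 9.88 and 9.94 in WT. In both, every array of either knockout lay below every WT array, and the knockouts overlapped each other. Against WT, 1418280_at fell in Foxp3-cre by 0.74 (SE 0.14, limma adjusted p = 0.0344), to 60.1% of the WT signal, and 1427742_a_at by 0.46 (SE 0.08, adjusted p = 0.0259), to 72.7%. The third, 1433508_at, read 8.26, 8.49 and 8.55 in Foxp3-cre, 8.63, 8.57 and 8.52 in CD4-cre, and 8.98, 8.63 and 9.03 in WT. Its difference of -0.44 (SE 0.12) lay close to that of 1427742_a_at and did not pass (adjusted p = 0.0996).

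Ppp1r15a, also called GADD34, is the regulatory subunit that directs protein phosphatase 1 to the translation factor eIF2 alpha and so ends the translational arrest of stressed cells. It read 9.87, 10.26 and 10.21 in Foxp3-cre, 10.60, 10.56 and 10.53 in CD4-cre, and 10.89, 10.48 and 11.08 in WT. The Foxp3-cre arrays were the lowest of the 9. The difference from WT was -0.71 (SE 0.16, 95% interval -1.06 to -0.35) at a limma adjusted p of 0.0509, just above the threshold, and it passed in 7 of 18 alternative settings (adjusted p between 0.000677 and 0.190), among them the fit with 1 probe set per gene (adjusted p = 0.0425).

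Among the other AP-1 genes, Fosb, a partner of Jun proteins, had the widest difference. Its signals were 9.059, 9.003 and 9.062 in Foxp3-cre, 10.02, 9.79 and 9.54 in CD4-cre, and 9.44, 9.40 and 10.06 in WT. The Foxp3-cre arrays lay within 0.06 log2 units of one another and below all others, while WT replicate 3 exceeded the other WT arrays. The difference from WT was -0.59 (SE 0.18, limma adjusted p = 0.123). Junb, another AP-1 subunit, read 11.21, 11.37 and 11.33 in Foxp3-cre, 11.77, 11.69 and 11.63 in CD4-cre, and 11.84, 11.43 and 11.98 in WT. It too showed no overlap between Foxp3-cre and WT, with a difference of -0.44 (SE 0.13, adjusted p = 0.120). Fos, the best known partner of Jun, read 12.05, 12.09 and 12.10 in Foxp3-cre, 12.59, 12.49 and 12.42 in CD4-cre, and 12.50, 11.85 and 12.61 in WT. WT replicate 2 was the lowest of all 9 Fos values and the groups overlapped. The Fos difference was -0.24 (SE 0.17, adjusted p = 0.478) with all arrays and -0.47 (adjusted p = 0.0138) without WT replicate 2.

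Of the remaining regulators of transcription, Nr4a1, the orphan nuclear receptor Nur77, is widely used as a sign of antigen receptor signalling. It read 9.98, 10.30 and 10.14 in Foxp3-cre, 10.92, 10.67 and 10.74 in CD4-cre, and 10.47, 10.29 and 11.003 in WT. Foxp3-cre and WT overlapped through WT replicate 2, and the difference of -0.45 (SE 0.17) did not pass (limma adjusted p = 0.209). Ier2, a nuclear protein, read 10.21, 10.38 and 10.39 in Foxp3-cre, 10.64, 10.54 and 10.52 in CD4-cre, and 10.61, 10.54 and 10.63 in WT. The Foxp3-cre arrays lay below all others, at a difference of -0.26 from WT (SE 0.08, adjusted p = 0.126). Egr1, a zinc-finger transcription factor, read 10.77, 10.57 and 10.66 in Foxp3-cre, 10.82, 10.86 and 10.80 in CD4-cre, and 10.77, 10.77 and 10.95 in WT. Its difference was -0.16 (SE 0.09, 95% interval -0.36 to 0.03, adjusted p = 0.335), and Foxp3-cre overlapped WT.

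Dusp1, a phosphatase that inactivates MAP kinases and thereby limits the response, had the smallest difference. It read 12.08, 12.34 and 12.42 in Foxp3-cre, 12.64, 12.53 and 12.50 in CD4-cre, and 12.40, 12.16 and 12.59 in WT, and Foxp3-cre overlapped WT. The difference was -0.10 (SE 0.13, 95% interval -0.39 to 0.18, limma adjusted p = 0.673). An interval that reaches from -0.39 to 0.18 does not show that the level was the same.

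**Figure D1:**
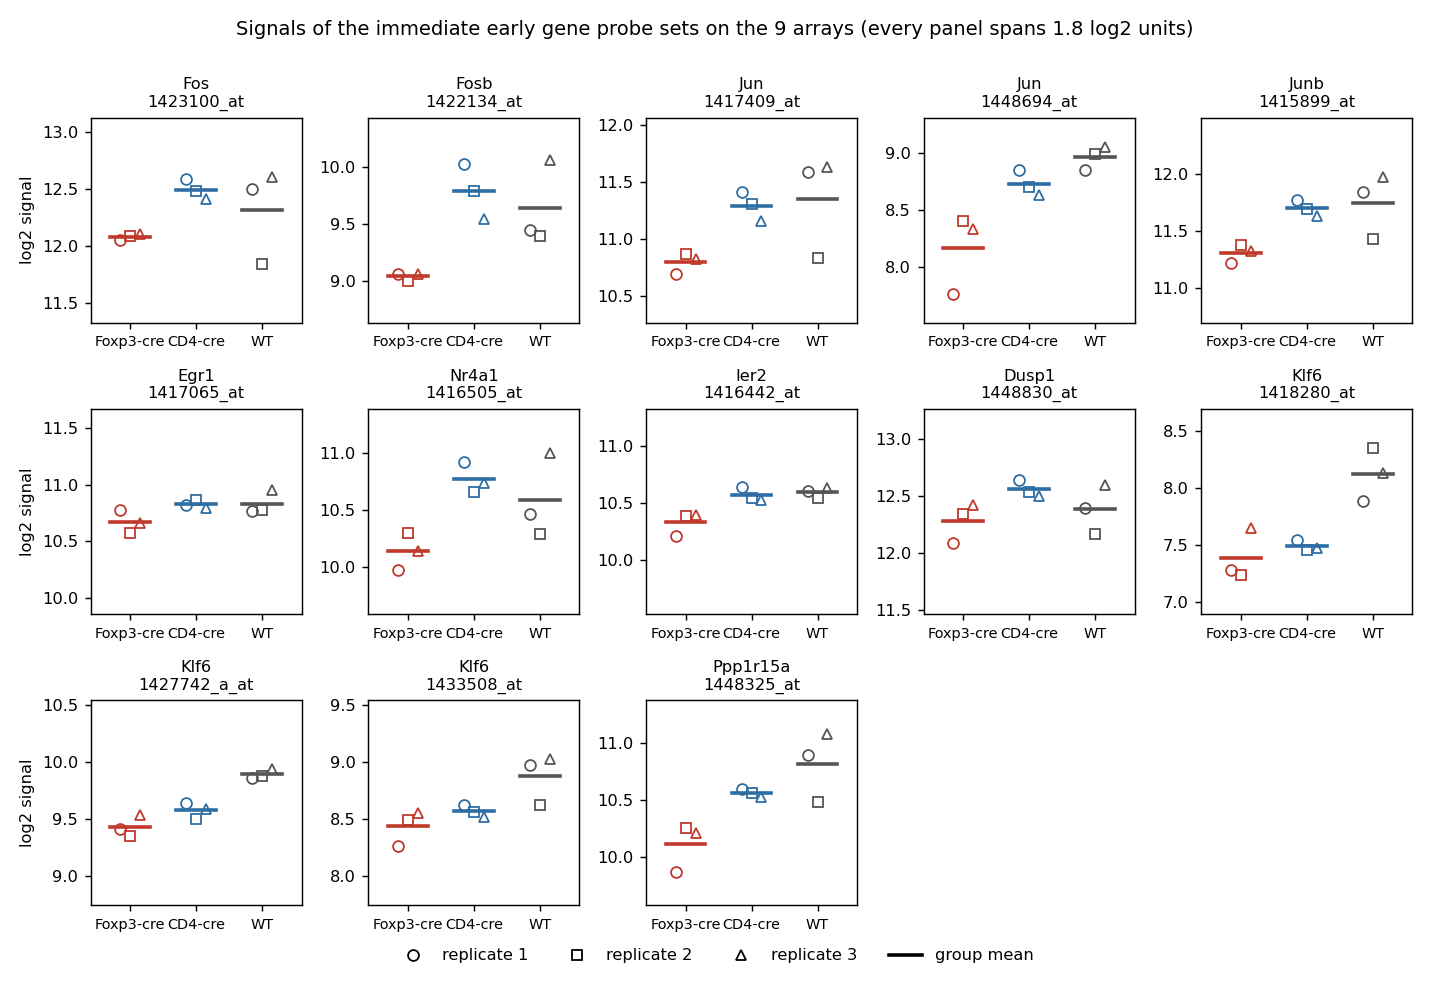
Log2 signals of the 13 immediate early gene probe sets (vertical axes, log2 units) on the 3 Foxp3-cre, 3 CD4-cre and 3 WT arrays, with symbols for the replicates and bars for group means. The Foxp3-cre arrays lie below all WT arrays in 8 panels, and WT replicate 2 is the lowest WT array in 9.

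The count of 3 changed probe sets rested on particular arrays. Without WT replicate 2, 8 probe sets of 5 genes fell in Foxp3-cre (Fos, Jun, Junb, Klf6 and Ppp1r15a), the 3 named above included, against 5.45% of all probe sets changed in that fit, and 11 of 13 were fully separated, where 20.9% of all probe sets were with 2 WT arrays. Without WT replicate 3 no member probe set passed, and the median of the members was -0.29. The count was also 0 without CD4-cre replicate 1, 2 or 3, whose arrays enter the same spread estimate, and without Foxp3-cre replicate 2. It was 1 without Foxp3-cre replicate 1 or 3, and 3 without WT replicate 1. WT replicate 2 was the lowest WT array in 9 of the 13 probe sets and WT replicate 1 in the other 4, which include the 3 that passed. The direction was the same in every one of these fits for all probe sets except Dusp1, which stood at 0.0008 without WT replicate 3.

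**Figure D2:**
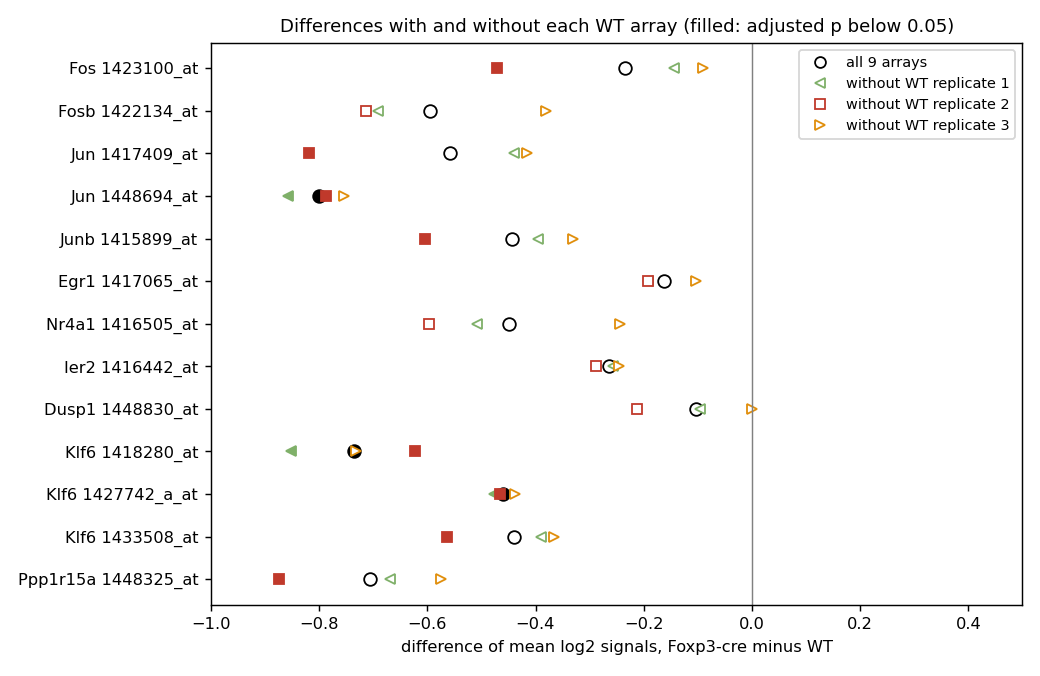
Differences of mean log2 signals, Foxp3-cre minus WT (horizontal axis, log2 units), for each probe set with all 9 arrays and with each WT array left out, filled where the limma adjusted p was below 0.05. Leaving out WT replicate 2 gives 8 filled points, leaving out WT replicate 3 gives none.

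In CD4-cre against WT, no member probe set changed, whereas 0.449% of all tested probe sets did (limma, 0.250% lower and 0.199% higher), and without any 1 of the 9 arrays the count also stayed at 0. At an unadjusted p under 0.05 there were 3, all of Klf6 and all lower, against 6.64% of all probe sets in that direction. Array weights, which put little weight on WT replicate 2, gave 6, in a fit that called 18.4% of all probe sets. The median difference of the members was -0.01, that of all tested probe sets 0.02, and 9 of 13 probe sets lay below 0, against 45.0% of all. In 2 of 13, both of Klf6, every CD4-cre array lay below every WT array, which held for 9.11% of all probe sets.

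Klf6 had the widest differences in CD4-cre against WT, at -0.63 for 1418280_at (SE 0.14, 95% interval -0.95 to -0.32, limma adjusted p = 0.102), -0.31 for 1427742_a_at (SE 0.08, adjusted p = 0.144) and -0.31 for 1433508_at (SE 0.12, adjusted p = 0.329). Both knockouts are set against the same WT arrays, so the lower Klf6 of CD4-cre and that of Foxp3-cre are not independent of each other. The AP-1 genes lay close to WT, with Jun at -0.24 and -0.06 for its probe sets, Junb at -0.05, Fosb at 0.15 and Fos at 0.18. For Fos the 95% interval of -0.21 to 0.57 still holds changes in either direction. Ppp1r15a stood at -0.26 (SE 0.16, adjusted p = 0.503), Nr4a1 at 0.19, Dusp1 at 0.18, Egr1 at -0.01 and Ier2 at -0.02.

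The comparison of Foxp3-cre with CD4-cre sets the Sirt1 knockouts against each other and leaves out WT, though the WT arrays still enter the estimate of the spread. No member passed, and of all tested probe sets 1 did (0.00737%, Foxp3 itself). By array, every Foxp3-cre array lay below every CD4-cre array in 10 of 13 probe sets, where this held for 16.1% of all probe sets. The members varied together from array to array, so these probe sets are not separate observations. The exceptions to this separation were the 3 of Klf6. At an unadjusted p under 0.05 there were 8 probe sets, all lower, against 5.34% of all probe sets in that direction. The median difference of the members was -0.40, and that of all tested probe sets -0.01. All 13 lay below 0, against 52.7% of all probe sets.

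Fosb had the widest difference between the knockouts, -0.75 (SE 0.18, 95% interval -1.15 to -0.34, limma adjusted p = 0.236). Nr4a1 followed at -0.64 (SE 0.17, adjusted p = 0.280), Jun at -0.56 for 1448694_at and -0.50 for 1417409_at, Ppp1r15a at -0.45 and Fos at -0.41. The rest of the AP-1 and signal genes lay between -0.39 for Junb and -0.16 for Egr1. Klf6 differed least, at -0.10, -0.15 and -0.13 for 1418280_at, 1427742_a_at and 1433508_at. Without WT replicate 2, which changes only the spread here, Jun (1417409_at, adjusted p = 0.0459) and Fos (adjusted p = 0.0443) passed, and 0.685% of all probe sets did.

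**Figure D3:**
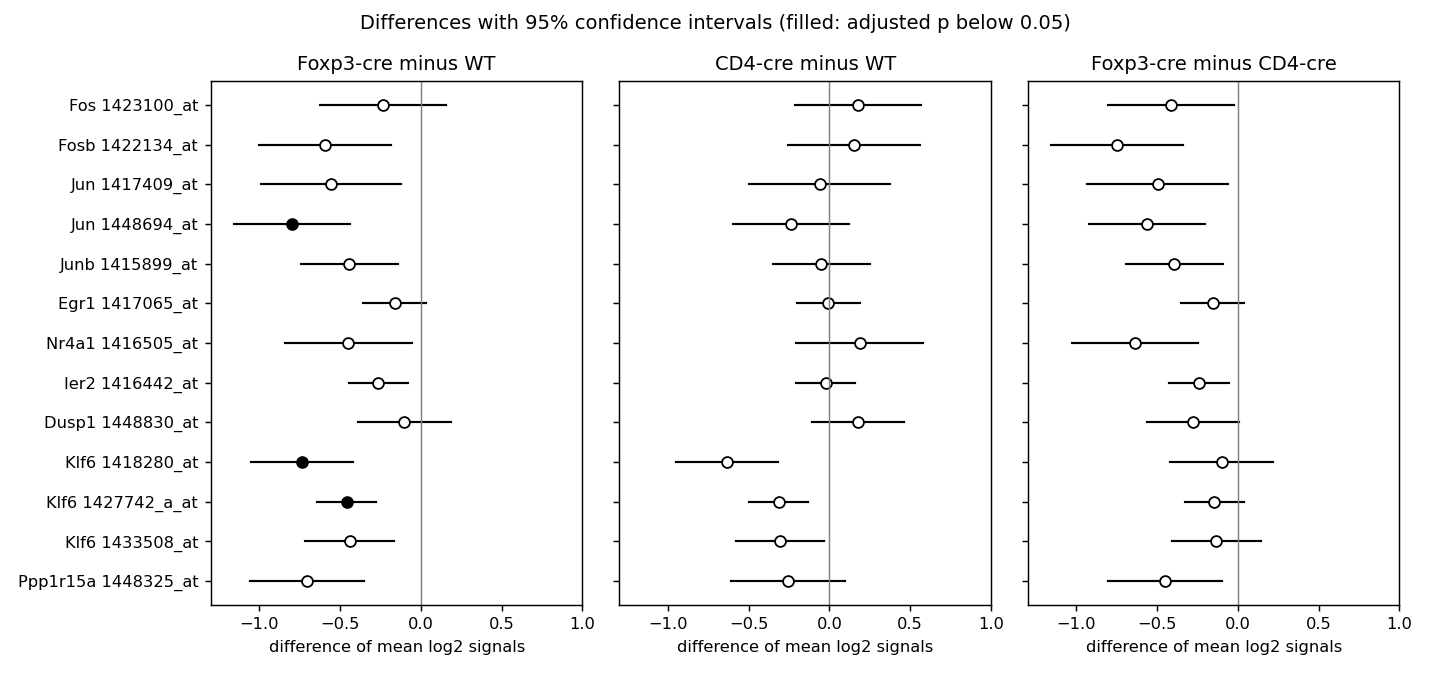
Differences of mean log2 signals with unadjusted 95% confidence intervals (horizontal axes, log2 units) for the 13 probe sets in Foxp3-cre minus WT, CD4-cre minus WT and Foxp3-cre minus CD4-cre, filled where the limma adjusted p was below 0.05. Only Jun 1448694_at and Klf6 1418280_at and 1427742_a_at are filled, all in Foxp3-cre minus WT, and Klf6 lies nearest to 0 between the knockouts.

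The members varied together from array to array. Averaged over the 10 genes, each centred on its own mean, the signal was -0.35, -0.23 and -0.22 in Foxp3-cre, 0.22, 0.11 and 0.06 in CD4-cre, and 0.15, -0.12 and 0.36 in WT. Foxp3-cre replicate 1 was the lowest of the 9 arrays in 8 probe sets, and WT replicate 3 the highest in 10. Within CD4-cre, replicate 1 was the highest of its group in 12 of 13. Across the 9 arrays, the correlation between probe sets of different members had a median Pearson r of 0.73 and ran from -0.04 to 0.99 over 74 pairs, and after the group means were taken off the median was 0.55. These pairs share arrays and normalization, so the values are a description. The spread between replicates of the members was widest in WT, with a median SD of 0.23, against 0.11 in Foxp3-cre and 0.07 in CD4-cre. Over all tested probe sets the SD had the same order of groups, at 0.09 in Foxp3-cre, 0.07 in CD4-cre and 0.19 in WT.

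The genes whose pattern over the 9 arrays was most like the mean of the members, out of 8036 genes ranked by Pearson r, were Fas (r = 0.98), the death receptor, Als2cl (0.97), Rgs14 (0.96), a regulator of G protein signalling, Hexim1 (0.94), an inhibitor of the elongation factor P-TEFb, and Apbb3 (0.94). Fas stood at -0.31 in Foxp3-cre against WT (adjusted p = 0.0957) and -0.07 in CD4-cre against WT, and none of the 5 genes passed in limma. Most like Jun 1448694_at were Dbndd2, Sun2 and the interleukin-7 receptor gene Il7r (r of 0.95 each), with differences in Foxp3-cre against WT of -0.42, -0.19 and -0.46, none of which passed. Most like Klf6 1427742_a_at were Aqp9, Ifng and Tnfrsf1a (r of 0.96 each). All 3 fell in Foxp3-cre against WT, Aqp9 by 1.29 (adjusted p = 0.00402), Ifng, the interferon gamma gene, by 1.17 (adjusted p = 0.000808) and Tnfrsf1a, a receptor of tumour necrosis factor, by 0.55 (adjusted p = 0.0155). In CD4-cre against the same WT arrays, Aqp9 fell by 1.003 (adjusted p = 0.0192) and Ifng by 0.80 (adjusted p = 0.00973), while Tnfrsf1a stood at -0.30 (adjusted p = 0.165). For Klf6 1418280_at they were Cnppd1 (r = 0.99), Blcap and Gpc1 (r of 0.95 each). Of these, Gpc1 fell by 1.25 in Foxp3-cre (adjusted p = 0.0177) and by 1.29 in CD4-cre (adjusted p = 0.0268) against WT. All genes of this paragraph were picked for their likeness to the members over the same 9 arrays. A gene picked to follow a lower probe set tends to be lower too. The falls and their adjusted p are therefore no separate support.

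Other early response genes, a list of 46 of which 41 were matched and 40 tested with 66 probe sets, were set beside the members. In Foxp3-cre against WT, 3 genes (5 probe sets) fell and none rose in limma, where 1.31% of all probe sets fell. The median by the brightest probe sets was -0.12, with 31 of 40 genes below 0, against 48.9% of all probe sets. Maff, a small Maf transcription factor, read 5.57, 5.58 and 5.73 in Foxp3-cre, 6.29, 6.08 and 6.14 in CD4-cre, and 6.08, 6.42 and 6.58 in WT. Its Foxp3-cre arrays lay below all others, and it fell by 0.73 against WT (adjusted p = 0.0259). Klf4, a Krüppel-like factor, fell by 0.57 by 1417395_at (adjusted p = 0.0358), and its other probe set stood at -0.49 (adjusted p = 0.216). Mcl1, a survival protein of the BCL2 family, fell by 0.63, 0.66 and 0.71 for 3 of its 6 probe sets (adjusted p between 0.0155 and 0.0360). Another Mcl1 set stood at -0.75 (adjusted p = 0.0508) and the remaining ones at -0.16 and -0.03, so its probe sets disagreed with all arrays in. Without WT replicate 2 they lay closer together. The 3 that fell then stood at -0.55, -0.50 and -0.55, the next at -0.53, and the remaining ones at -0.35 and -0.20. In CD4-cre against WT, Mcl1 alone fell, by 0.62 for 1416880_at (adjusted p = 0.0264), where 0.250% of all probe sets fell. The list median was 0.01. Between the knockouts none passed in limma. At an unadjusted p under 0.05 were 9 of 66 probe sets, all lower, against 5.34% of all probe sets in that direction. Gadd45b 1449773_s_at and Klf4 1417395_at lay lowest there, both at -0.60, while the list median was -0.10. The other probe sets of these genes stood at -0.51 and -0.28 for Gadd45b and at -0.55 for Klf4. Without WT replicate 2 the counts of changed genes were 7 in Foxp3-cre and 3 in CD4-cre against WT, in fits that called 5.45% and 2.56% of all probe sets. In Foxp3-cre the count was 3 without WT replicate 1, 0 without Foxp3-cre replicate 2, and 1 without any other single array. In CD4-cre it was 0 without WT replicate 3, Foxp3-cre replicate 2 or any CD4-cre array, and 1 without the remaining ones.

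The list of AP-1 and ATF partners overlaps those genes. Of its 11 tested genes 2 fell in Foxp3-cre against WT, Maff and Atf4, where 1.31% of all probe sets fell. Atf4, the transcription factor of the amino acid and stress response, fell by 0.35 for 1448135_at (limma adjusted p = 0.0463). Its other tested probe set stood at -0.56 (adjusted p = 0.138), or -0.33 without WT replicate 2. The constitutive Jun relative Jund stood at -0.29 (adjusted p = 0.120) in Foxp3-cre against WT. In CD4-cre against WT none passed. At an unadjusted p under 0.05 were 3 of 15 probe sets, all lower, against 6.64% of all probe sets in that direction. The widest differences were Atf4 1438992_x_at at -0.60 and Batf3 at -0.31, or -0.37 and -0.15 without WT replicate 2. Between the knockouts none passed, with 5 probe sets at an unadjusted p under 0.05 in limma. Of these, 4 were lower, against 5.34% of all probe sets in that direction, and 1 was higher. Maff stood at -0.55 and Batf3 at 0.49. Of the 12 tested genes tied to eIF2 phosphorylation and ATF4, 1 rose in both knockouts against WT. It was asparagine synthetase (Asns), which rose by 2.87 in Foxp3-cre and 2.73 in CD4-cre for 1451095_at. Of all probe sets, 1.33% rose in Foxp3-cre and 0.199% in CD4-cre. Atf4, also in this list, was the 1 gene that fell, in Foxp3-cre only. At an unadjusted p under 0.05 in limma, 4 of 18 probe sets were lower in Foxp3-cre and 3 in CD4-cre, against 9.21% and 6.64% of all probe sets. Ppp1r15b, the constitutive counterpart of Ppp1r15a, stood at 0.01 in Foxp3-cre and -0.02 in CD4-cre for its brighter probe set, and Ddit3, a stress factor known to induce Ppp1r15a, at -0.47 (adjusted p = 0.0879) in Foxp3-cre and -0.13 in CD4-cre. Without WT replicate 2, Ppp1r15b stood at -0.20 in Foxp3-cre and -0.22 in CD4-cre, and Ddit3 at -0.32 (adjusted p = 0.0485) and 0.018.

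Genes upstream of the members were the last list of the pathway. Of 16 tested kinases and transcription factors with 32 probe sets, none passed in limma in any of the comparisons. At an unadjusted p under 0.05 were 3 probe sets in Foxp3-cre and 3 in CD4-cre against WT, and 1 between the knockouts. In each comparison 1 of these was lower, against 9.21%, 6.64% and 5.34% of all probe sets in that direction. The medians were 0.02 in Foxp3-cre and 0.10 in CD4-cre against WT, and -0.03 between the knockouts. Nfatc1, a calcium-regulated factor, stood at 0.37 in Foxp3-cre against WT (adjusted p = 0.10) and Elk4, a partner of serum response factor, at 0.34 by 1450549_s_at (adjusted p = 0.133), its brighter probe set being at 0.11. In CD4-cre, Mapk9, which encodes a kinase that phosphorylates the Jun protein, stood at 0.45 by 1421877_at (adjusted p = 0.489), or 0.064 without WT replicate 2, and Elk4 at 0.42 (adjusted p = 0.144). Between the knockouts Elk1 and Elk3, relatives of Elk4, lay lowest at -0.31 and -0.28. Serum response factor itself, Srf, stood at -0.18 and -0.12 in Foxp3-cre against WT by its probe sets. These are transcript levels, and the activity of the kinases was not measured.

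**Figure D4:**
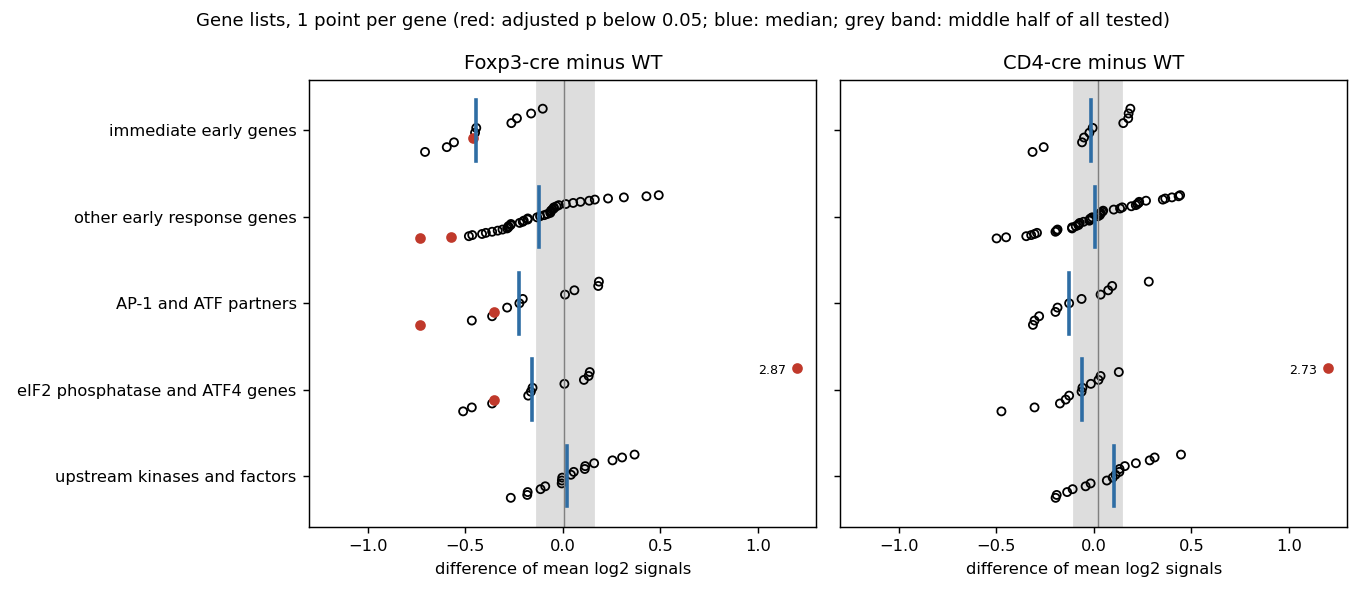
Differences of mean log2 signals (horizontal axes, log2 units) for 5 gene lists in Foxp3-cre minus WT and CD4-cre minus WT, 1 point per gene by its brightest tested probe set, red where that probe set passed. The blue median of the immediate early genes lies at -0.45 on the left and -0.01 on the right, the grey band spans the quartiles of all tested probe sets, and Asns is drawn at the edge with its value.

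Some markers of other cells were higher in Foxp3-cre. Of 10 neutrophil markers, all tested, 5 rose against WT in limma (Camp by 2.49, Ngp by 2.43, Lcn2 by 2.40, Mpo by 1.81 and Elane by 1.14), where 1.33% of all probe sets rose. Csf3r alone lay below 0, at -0.33, and Cxcr2 stood at 0.05. The list median was 1.48, where that of all tested probe sets was 0.01. At an unadjusted p under 0.05 in limma, 8 of 10 probe sets were higher and 0 lower. For this list and those below, the share of all probe sets higher at that p was not counted. In CD4-cre against WT, Csf3r stood at -1.53. The mean over the list was 9.16 to 10.14 in Foxp3-cre, 8.23 to 9.08 in CD4-cre and 7.78 to 8.75 in WT. Of 9 tested monocyte and macrophage markers 1 rose, C1qb by 2.47 for 1 of its probe sets. The list median by the brightest probe sets was 0.85, and 8 of 13 probe sets were higher and 0 lower at an unadjusted p under 0.05. Between the knockouts none passed, with medians of 1.12 for neutrophil and 1.17 for monocyte and macrophage markers. Against WT the latter list was not uniform. By the brightest probe sets Ccr2 alone lay below 0, at -0.42. Without WT replicate 2, C1qb, Camp and Lcn2 no longer passed in limma (adjusted p = 0.0573, 0.0502 and 0.0533). The mean of the monocyte and macrophage list was 5.88 to 7.27 in Foxp3-cre, 5.29 to 6.30 in CD4-cre and 5.49 to 5.90 in WT. Foxp3-cre replicate 1 had the lowest mean of the group for immediate early genes. It was also the lowest of the group for every marker list except T cell markers, where it was the highest. B cell markers were 6.21 to 7.57 in Foxp3-cre, 6.75 to 6.88 in CD4-cre and 6.09 to 6.73 in WT. None of 6 tested genes passed the threshold in limma in Foxp3-cre against WT (Ms4a1 at 1.06, Ebf1 at 1.03), and the list median was 0.68. At an unadjusted p under 0.05 were 3 of 7 probe sets, all higher. The means of NK cell markers were 6.38 to 7.10 in Foxp3-cre and 6.57 to 7.31 in CD4-cre, against 7.42 to 7.50 in WT. None of 6 genes passed the threshold in limma in Foxp3-cre against WT (Klra8 at -1.92, Prf1 at -0.86). At an unadjusted p under 0.05 were 3 of 7 probe sets, all lower, against 9.21% of all probe sets in that direction. Dendritic, CD8 T cell and erythroid or platelet lists had 2 tested genes each, and none passed in limma, with 0 probe sets at an unadjusted p under 0.05. The part of these other cells in the immediate early gene signals was not tested.

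**Figure D5:**
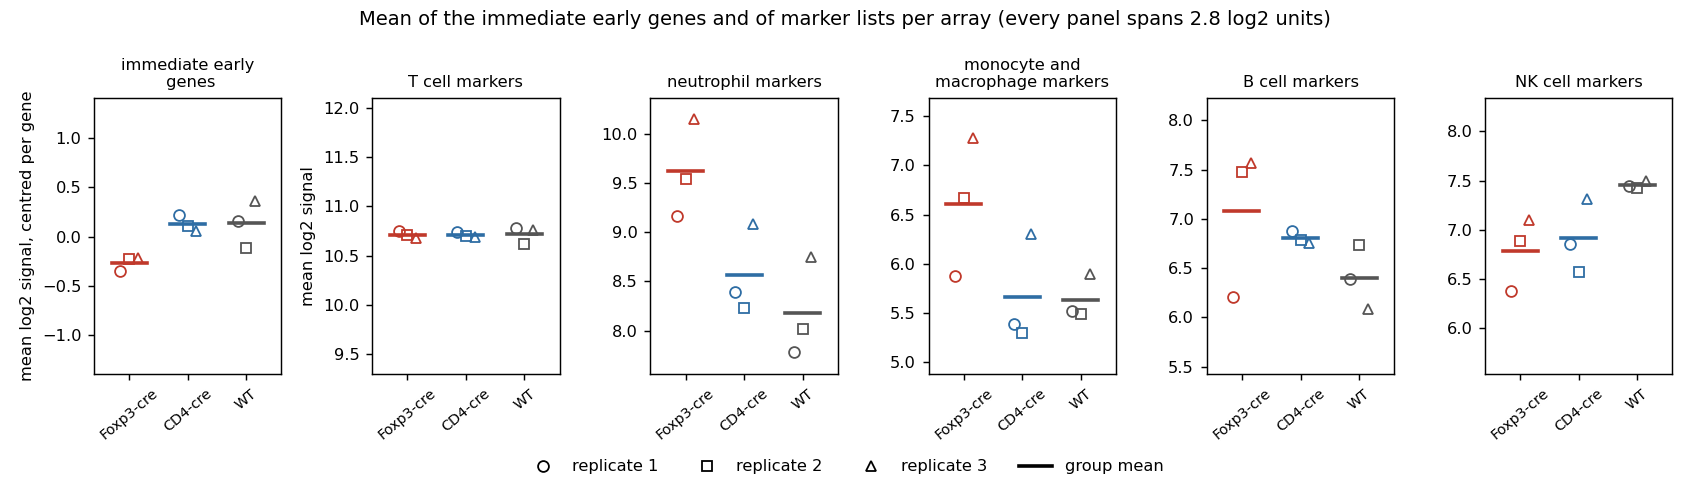
Mean of the 10 immediate early genes, each centred on its own mean, and means of 5 marker lists per array (vertical axes, log2 units), by group, with symbols for replicates and bars for group means. The Foxp3-cre arrays are the 3 lowest for the immediate early genes and the 3 highest for the neutrophil markers, while T cell markers overlap.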

How the data were processed

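Expression was measured on 9 one-colour probe set arrays, 1 per sample, 3 each for Foxp3-cre, CD4-cre and WT. The deposited values are log2 signals, 1 per probe set, made by the authors with RMA per the submitters' processing notes. RMA corrects background, normalizes between arrays and summarises probes, which compresses dim differences and removes changes common to all genes. The RMA version, scanner and build were not given in the sources used here. Of 22690 probe sets, 64 controls were left out. Of the rest 20380 have 1 gene symbol, 691 several and 1555 none. The 13 member symbols matched RefSeq gene IDs, with 0 changed. The 13576 probe sets whose mean over the arrays reached the 40th percentile (4.52) were tested. The fit was limma 3.58.1 in R 4.3.3 (lmFit, eBayes) over all 9 arrays (6 residual and 3.20 prior degrees of freedom), with two-sided tests, Benjamini-Hochberg adjustment over all tested probe sets and a threshold of 0.05. Every adjusted p is limma's. The code of the fit was run on simulated data with planted changes and independent noise. That run checks the code and does not bear on the calls reported here. The number of arrays limits the precision, with a median SE of 0.12. Exact permutation of 3 against 3 arrays cannot go below p = 0.1 and was not used. Genes other than members are named by a rule: up to 6 changed genes per list and comparison, or the 2 with the largest differences where none changed, and the genes most like the members by Pearson r. Jund, Srf, Ddit3 and Ppp1r15b were added after their values were seen. The members and lists were chosen with earlier results of these data known. List genes without a matched probe set are not analysed here. Alternatives changed the filter, normalization, probe set choice, arrays, weights, block and empirical Bayes settings.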

Additional observations from a re-analysis of the deposited data

Results flagged for a closer look

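Foxp3, by its probe set 1420765_a_at, was the 1 gene named here whose difference from WT was itself different between the knockouts. The difference Foxp3-cre minus CD4-cre was -6.70 log2 units (limma adjusted p = 4.22e-07). The Foxp3-cre signals lay under the filter for dim probe sets and those of CD4-cre above it. Differences at dim signals are compressed, so this size is only approximate. The labels do not say which Foxp3-cre allele was used. For the immediate early genes 0 of 13 probe sets passed the same test of Foxp3-cre against CD4-cre. At an unadjusted p under 0.05 were 8, all lower, against 5.34% of all probe sets in that direction.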

How the results depend on the processing

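The median differences of the members moved by less than 0.15, the pooled SD between replicates of the members' mean signal, in every alternative run but 1, leaving out WT replicate 3, which gave -0.29 in Foxp3-cre against WT. Array weights gave -0.55 in Foxp3-cre and -0.14 in CD4-cre. Leaving out single arrays gave medians of -0.53 to -0.29 in Foxp3-cre and -0.05 to 0.07 in CD4-cre against WT, and -0.44 to -0.34 between the knockouts. It gave 0 to 8 changed member probe sets in Foxp3-cre against WT, 0 in CD4-cre and 0 to 2 between the knockouts, 0 to 7, 0 to 3 and 0 to 1 changed other early response genes in the same order, and 64 to 740, 10 to 348 and 1 to 93 changed probe sets in all (with all arrays 358, 61 and 1).

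Array weights, which were 0.085 for WT replicate 2 and 3.13 for WT replicate 3, raised the counts to 2668, 2498 and 948 probe sets in all, 12, 6 and 7 of the members and 17, 11 and 5 of the other early response genes. With only the compared groups in the fit there were 28, 11 and 53 probe sets in all, and 0 members and 0 other early response genes in the comparisons with WT. The fit with 1 probe set per gene gave 0 other early response genes in CD4-cre. Centring arrays on their medians gave 163 higher and 246 lower probe sets in Foxp3-cre against WT, where the deposited scale gave 180 and 178. The replicate block gave 3, 0 and 0 member probe sets, as without it, but 96 probe sets in all in CD4-cre against WT and 97 between the knockouts. Nothing in the labels ties the replicate numbers to shared animals or days, the deviations of same-numbered arrays correlated at -0.02 to 0.42 (6 of 9 pairs above 0.1), and 6 of 9 arrays correlated best with their own number.

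Signs turned only among small differences that did not pass. In CD4-cre against WT these were Junb (0.063), Egr1 (0.054) and Jun 1417409_at (0.082) without WT replicate 3, Jun 1417409_at (0.058) without WT replicate 1, Egr1 (0.0088) and Jun 1417409_at (0.0041) without CD4-cre replicate 3, Fos (-0.058) without WT replicate 2, and Nr4a1 (-0.13), Fosb (-0.14) and Fos (-0.066) under array weights. In Foxp3-cre against WT it was Dusp1 (0.0008) without WT replicate 3. The lowest and highest values without single arrays were -0.21 and 0.063 for Junb, -0.036 and 0.054 for Egr1, -0.32 and 0.082 for Jun 1417409_at and -0.058 and 0.32 for Fos in CD4-cre, and -0.21 and 0.0008 for Dusp1 in Foxp3-cre. The causes were not tested. Background correction and scan batches were not run, since the values used are already summarised.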
